A study of Mus musculus with 6 samples.

Results

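The genes of sterol synthesis, of fatty acid synthesis, of sterol export and of the SREBP system that controls them were followed in mouse embryonic stem cells after siRNA against Ncl, the gene of the nucleolar protein nucleolin. The set held 35 genes, chosen by name as enzymes and regulators of these pathways, with earlier results of these data known. A gene was measured if a probe set of the array was annotated to its symbol alone, and where several were, the probe set with the highest mean over the 6 arrays stood for it. By this rule 34 of the 35 genes were measured, out of 18194 genes in all, and Acat2 was not analysed here. The 34 comprised 17 sterol synthesis genes (6 of the mevalonate steps, 3 that make squalene and lanosterol, and 8 that turn lanosterol into cholesterol), 6 genes of SREBP control and sterol carriage, 9 of fatty acid synthesis and 2 of sterol export.

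All cells were E14Tg2a, an established line of mouse embryonic stem cells, taken at 96 h. One group had been transfected with an siRNA duplex that targets firefly luciferase, a gene these cells lack, and served as control. The other groups had received Ncl siRNA #1 or Ncl siRNA #2, which are separate duplexes against the same gene. Each group held 2 Affymetrix arrays. Knockdown by siRNA is transient and partial, the line is 1 line, and whether replicates came from separate cultures is not stated. The p-values therefore reflect the spread between arrays, which may be technical.

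Cells build cholesterol from acetyl-CoA through mevalonate, farnesyl diphosphate, squalene and lanosterol. The transcription factors SREBP1 (Srebf1) and SREBP2 (Srebf2) are held in the membrane of the endoplasmic reticulum by Insig proteins while sterols are plentiful. When sterols are scarce, Scap escorts them to the Golgi, where they are cleaved, and the released part switches on the genes of sterol and fatty acid synthesis. Liver X receptors, which sense oxidised sterols, act in the other direction on cholesterol and switch on the exporters Abca1 and Abcg1.

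On its brightest probe set Ncl itself gave 14.21 and 14.21 in control, 13.77 and 13.74 after siRNA #1 and 13.77 and 13.72 after siRNA #2. It fell by 0.46 on the log2 scale with each siRNA (SE 0.04, limma adjusted p = 5.65e-09 and 3.57e-09). All 8 stem cell markers, such as Pou5f1 and Nanog, read above the lower quartile on all arrays, but most were lower after Ncl siRNA. With siRNA #1, 6 of the 8 fell and 1 (Utf1) rose, with a median of -0.40, and with siRNA #2, 7 fell and 1 (Utf1) rose, with a median of -0.61. Esrrb changed by -0.59 and -1.08 and Tfcp2l1 by -1.21 and -1.44, and the list mean was 12.54 and 12.50 in control, 12.20 and 12.14 with siRNA #1 and 11.92 and 11.93 with siRNA #2. The 2 control arrays stood apart from the 4 Ncl siRNA arrays by transcripts of some other tissues. In the control arrays the summed linear signal of 7 airway secretory genes was 9358 and 9552, against 199.6 to 251.2 in the others. Scgb1a1, the brightest of them in control, read 12.96 and 12.96 there and 3.29 to 4.01 in the others. With each siRNA 6 of the 7 fell, and Muc5b passed with neither. The summed linear signal of 7 alveolar type 2 genes was 2777 and 3125 in the control arrays, against 676.3 to 812.0 in the others. Of these alveolar type 2 genes 5 fell with each siRNA, while Abca3 rose with siRNA #1 (0.40) and Sftpb passed with neither. Of 8 heart muscle genes 6 fell with each siRNA, and of 5 liver genes none passed. Of 6 alveolar type 1 genes 4 fell with siRNA #1 and 3 with siRNA #2, but Pdpn rose by 2.03 and 2.46. Of 4 measured adipocyte genes, whose summed signal was 111.1 and 112.8 against 57.3 to 61.4, Adipoq and Fabp4 read 5.14 to 5.43 in the control arrays and 3.44 to 4.09 in the others, while Cidec and Lep lay between 3.69 and 4.14 on all 6. Of 8 leukocyte and macrophage genes 3 fell with each siRNA, while 2 rose with siRNA #1 (Cd68 by 0.50 and Laptm5 by 0.26) and 1 with siRNA #2 (Laptm5 by 0.25), and their summed linear signal was 2519 to 2778 over the 6 arrays. Among them were Lyz2, at 8.69 and 8.94 in the control arrays and 5.20 to 5.37 in the others, and Ptprc, at 3.50 to 4.37 on all 6. Poly-A control RNAs averaged 6.78 and 6.64 in the control arrays and 7.26 to 7.65 in the others, and hybridisation control RNAs 11.72 and 11.86 against 10.87 to 11.01. The 18S rRNA probe sets averaged 12.19 and 12.02 in the control arrays and 12.96 to 13.20 in the others. All comparisons against control below share these 2 arrays, and the part of these differences in the changes was not tested.

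**Figure D1:**
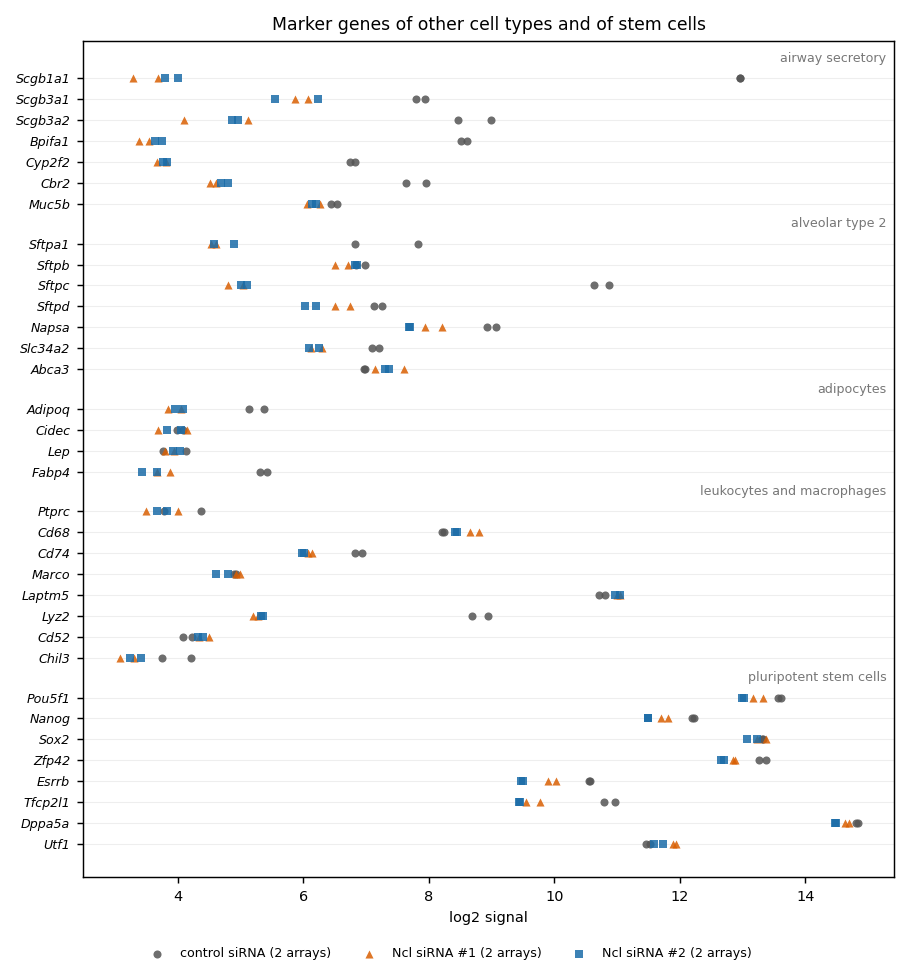
Log2 signal (x axis) of marker genes of airway secretory cells, alveolar type 2 cells, adipocytes, leukocytes and macrophages, and pluripotent stem cells on each array, with circles for control siRNA, triangles for Ncl siRNA #1 and squares for Ncl siRNA #2 (2 arrays each). Lyz2 sits at 8.69 and 8.94 in the control arrays and between 5.20 and 5.37 in the others, and most stem cell genes, Tfcp2l1 and Esrrb farthest, lie to the left of control after Ncl siRNA.

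Transcripts of sterol synthesis genes were lower with each Ncl siRNA across most of the pathway. With siRNA #1, 12 of 17 genes fell, none rose and 5 did not pass. With siRNA #2, 15 fell, none rose and 2 did not pass. The median change was -0.56 with siRNA #1 and -0.64 with siRNA #2, which puts the median gene at 67.9% and 64.0% of control. The median of all 18194 genes was -0.05 and -0.04 in the same comparisons. A gene passed at a limma adjusted p under 0.05 over all genes, and of all genes 37.4% passed with siRNA #1 (20.2% higher and 17.3% lower) and 39.5% with siRNA #2 (17.7% higher and 21.7% lower). In these bulk samples, fewer cells that express a gene and less of its RNA per cell cannot be told apart. The stem cell markers fell in the same comparisons, with medians of -0.40 and -0.61, and their part in the sterol changes was not tested.

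**Figure D2:**
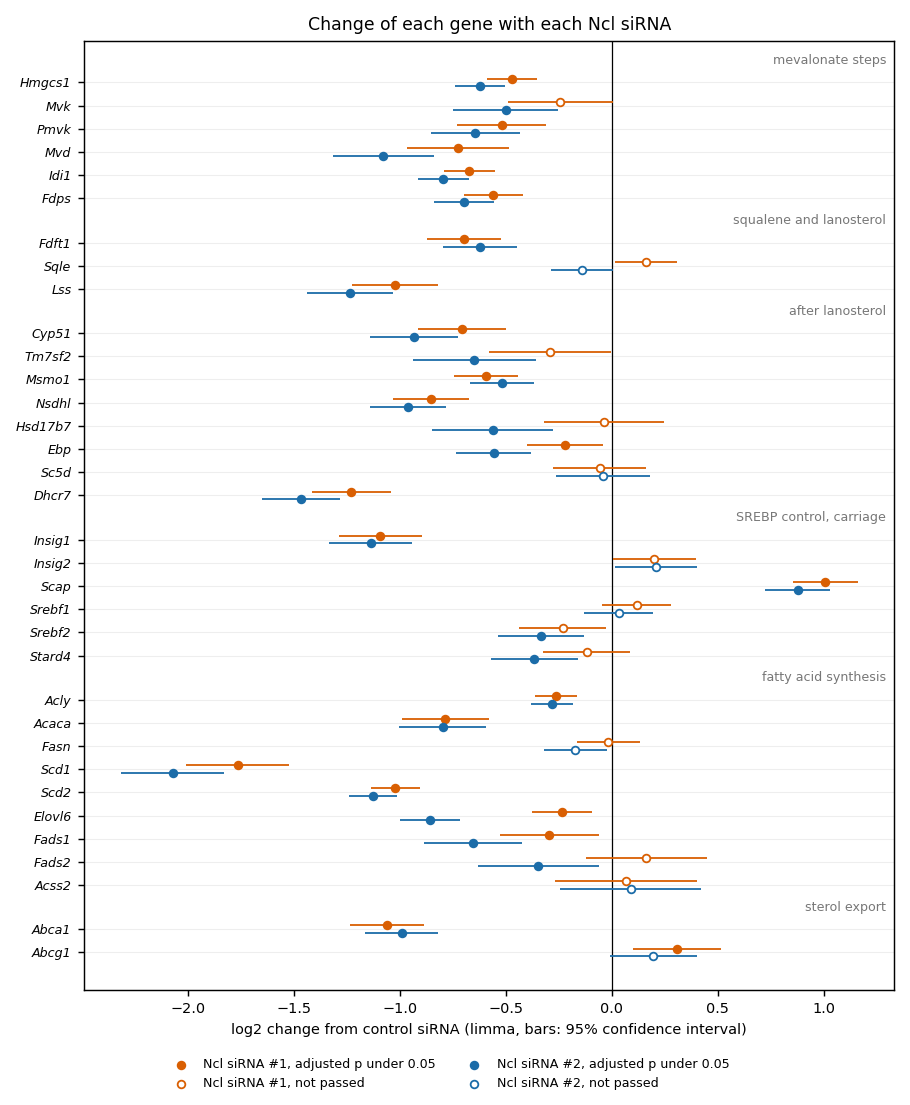
Change of each of the 34 genes from the control siRNA (x axis, log2), ordered by role, with Ncl siRNA #1 in orange and Ncl siRNA #2 in blue. Filled points passed at an adjusted p under 0.05 and bars are unadjusted 95% confidence intervals from limma. Most sterol synthesis genes lie left of 0, Scd1 lies farthest left at -1.77 and -2.07, and Scap lies farthest right at 1.01 and 0.88.

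Among the mevalonate steps, all 6 measured genes were below both control arrays on all 4 Ncl siRNA arrays. Of all genes, both siRNA #1 arrays lay below both control arrays for 34.2%, and both siRNA #2 arrays for 38.6%. Hmgcs1, the synthase that makes HMG-CoA, read 12.38 and 12.46 in control, 12.03 and 11.87 with siRNA #1 and 11.81 and 11.79 with siRNA #2. It fell by 0.47 (SE 0.06, adjusted p = 5.86e-07) and fell by 0.62 (SE 0.06, adjusted p = 7.57e-09), the second being -0.35 with the mean of its probe sets. Idi1, the isomerase that makes the second of the C5 building blocks, read 11.69 and 11.67 in control, 10.99 and 11.03 with siRNA #1 and 10.85 and 10.93 with siRNA #2. The groups were far apart relative to their spread, and Idi1 fell by 0.67 (SE 0.06, adjusted p = 4.14e-09) and fell by 0.79 (SE 0.06, adjusted p = 2.31e-10), to 62.8% and 57.6% of control.

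Mvd, the decarboxylase of the pathway, gave 8.86 and 9.04, then 8.36 and 8.09, then 7.76 and 7.98, in the order control, siRNA #1, siRNA #2. Its changes of -1.08 with siRNA #2 (SE 0.11, adjusted p = 9.12e-08) and of -0.73 with siRNA #1 (SE 0.11, adjusted p = 2.50e-05) came from an _s_at probe set, a mark of probes shared between transcripts. On its other probe set Mvd changed by -0.56 with siRNA #2 (adjusted p = 4.01e-04) and by -0.35 with siRNA #1 (adjusted p = 0.0212). Fdps, which makes farnesyl diphosphate, read 11.32 and 11.31 in control, 10.85 and 10.66 with siRNA #1 and 10.57 and 10.66 with siRNA #2, changes of -0.56 and -0.70 (SE 0.07 for each). The Fdps call with siRNA #1 was lost with the mean of its 2 probe sets (-0.30, adjusted p = 0.0683), of which the dimmer lay below the lower quartile of all 6 arrays. Pmvk, a kinase, read 9.13 and 9.09 in control, 8.72 and 8.45 with siRNA #1 and 8.41 and 8.52 with siRNA #2. It fell with each siRNA, changes of -0.52 and -0.64 (SE 0.10, adjusted p = 2.52e-04 and 1.70e-05). Mvk, the mevalonate kinase, spanned 7.55 to 8.19 over the 6 arrays. It passed with siRNA #2 (-0.50, SE 0.12, adjusted p = 0.00163), but not without replicate 2 of that group (adjusted p = 0.0535). With siRNA #1 the Mvk change of -0.24 did not pass (adjusted p = 0.120, 95% interval -0.49 to 0.01), and it did without replicate 1 of siRNA #1 (-0.35, adjusted p = 0.0327).

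The enzymes that join farnesyl units and close the sterol rings did not move together. Fdft1, squalene synthase, read 11.21 and 11.22 in control, 10.69 and 10.35 with siRNA #1 and 10.51 and 10.67 with siRNA #2. All 4 Ncl siRNA arrays were lower, with changes of -0.70 and -0.62 (SE 0.08, adjusted p = 6.57e-07 and 2.58e-06), and all 4 of its probe sets were lower with each siRNA. These Fdft1 values are from an _x_at probe set, whose probes may read other transcripts, and the brightest of its others gave -0.39 and -0.38 (adjusted p = 3.41e-04 and 4.62e-04). Sqle, squalene epoxidase, read 10.01 and 10.06 in control, 10.22 and 10.17 with siRNA #1 and 9.85 and 9.93 with siRNA #2. Its changes of 0.16 (SE 0.07, adjusted p = 0.0748, 95% interval 0.02 to 0.31) and -0.14 (SE 0.07, adjusted p = 0.129, 95% interval -0.29 to 0.01) did not pass. Without replicate 2 of siRNA #1 the first of these passed (0.19, adjusted p = 0.0467). Lss, lanosterol synthase, read 9.84 and 10.12 in control, 9.06 and 8.84 with siRNA #1 and 8.72 and 8.75 with siRNA #2, changes of -1.02 and -1.24 (SE 0.10, adjusted p = 2.20e-08 and 8.92e-10). That probe set also ends in _s_at. On the brightest other probe set of Lss the changes were -0.10 and -0.26 (adjusted p = 0.669 and 0.203), and on the last -0.66 and -0.75, all in the same direction.

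After lanosterol, Dhcr7 had the lowest change of the sterol genes. Dhcr7, the reductase of the last step to cholesterol, read 9.72 and 9.71 in control, 8.52 and 8.45 with siRNA #1 and 8.22 and 8.28 with siRNA #2. It fell by 1.23 (SE 0.09, adjusted p = 2.71e-10) and fell by 1.47 (SE 0.09, adjusted p = 1.24e-11), to 42.7% and 36.2% of control, with no overlap between any of the 3 groups. Nsdhl, which removes a carboxyl group during demethylation, read 9.54 and 9.57 in control, 8.72 and 8.68 with siRNA #1 and 8.57 and 8.62 with siRNA #2. Nsdhl was at 55.3% and 51.4% of control (changes -0.85 and -0.96, SE 0.09). Cyp51, the lanosterol demethylase, read 9.11 and 9.02, then 8.45 and 8.27, then 8.10 and 8.17, in the same order of groups. Cyp51 changed by -0.71 and -0.93 (SE 0.10, adjusted p = 5.76e-06 and 9.22e-08), and all 3 of its probe sets were lower with each siRNA. Msmo1, the C4 methyl oxidase, read 10.37 and 10.39 in control, 9.84 and 9.73 with siRNA #1 and 9.91 and 9.81 with siRNA #2, changes of -0.59 and -0.52 (SE 0.07).

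Of the other genes after lanosterol, 1 of 4 fell with siRNA #1, against 17.3% of all genes. With siRNA #2, 3 of 4 fell, against 21.7% of all genes. Tm7sf2, a C14 sterol reductase, read 7.31 and 7.55 in control, 7.19 and 7.09 with siRNA #1 and 6.75 and 6.81 with siRNA #2. It fell with siRNA #2 (-0.65, SE 0.14, adjusted p = 5.89e-04), and with siRNA #1 the change of -0.29 did not pass (adjusted p = 0.111), except after quantile normalization (-0.42, adjusted p = 0.0122). Ebp, the isomerase that shifts a ring double bond, read 9.85 and 9.82, then 9.74 and 9.48, then 9.30 and 9.25. Ebp passed with siRNA #2 (-0.56, SE 0.09, adjusted p = 1.33e-05). With siRNA #1 it stood just inside the threshold (-0.22, SE 0.09, adjusted p = 0.0473) and was lost when any array but replicate 1 of siRNA #1 was left out, reaching -0.09 (adjusted p = 0.350) without replicate 2 of siRNA #1. Hsd17b7, a 3-ketosteroid reductase, read 7.62 and 7.68 in control, 7.80 and 7.43 with siRNA #1 and 7.12 and 7.05 with siRNA #2. The siRNA #1 arrays lay on both sides of control (-0.03, adjusted p = 0.873), and siRNA #2 gave -0.56 (SE 0.14, adjusted p = 0.00190). The 4 probe sets of Hsd17b7 disagreed. From the brightest down they gave -0.03, 0.18, 0.83 and -0.44 with siRNA #1. With siRNA #2 they gave -0.56, 0.01, 0.65 and -0.61, so its direction is uncertain with each siRNA. On its brightest probe set Sc5d, the desaturase at C5, stayed within 8.31 to 8.61 on all arrays. Its changes there were -0.06 (95% interval -0.28 to 0.16) and -0.04 (95% interval -0.26 to 0.18). The other Sc5d probe sets disagreed in direction, at 0.18 and -0.09 with siRNA #1 and at -0.17 and 0.27 with siRNA #2.

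**Figure D3:**
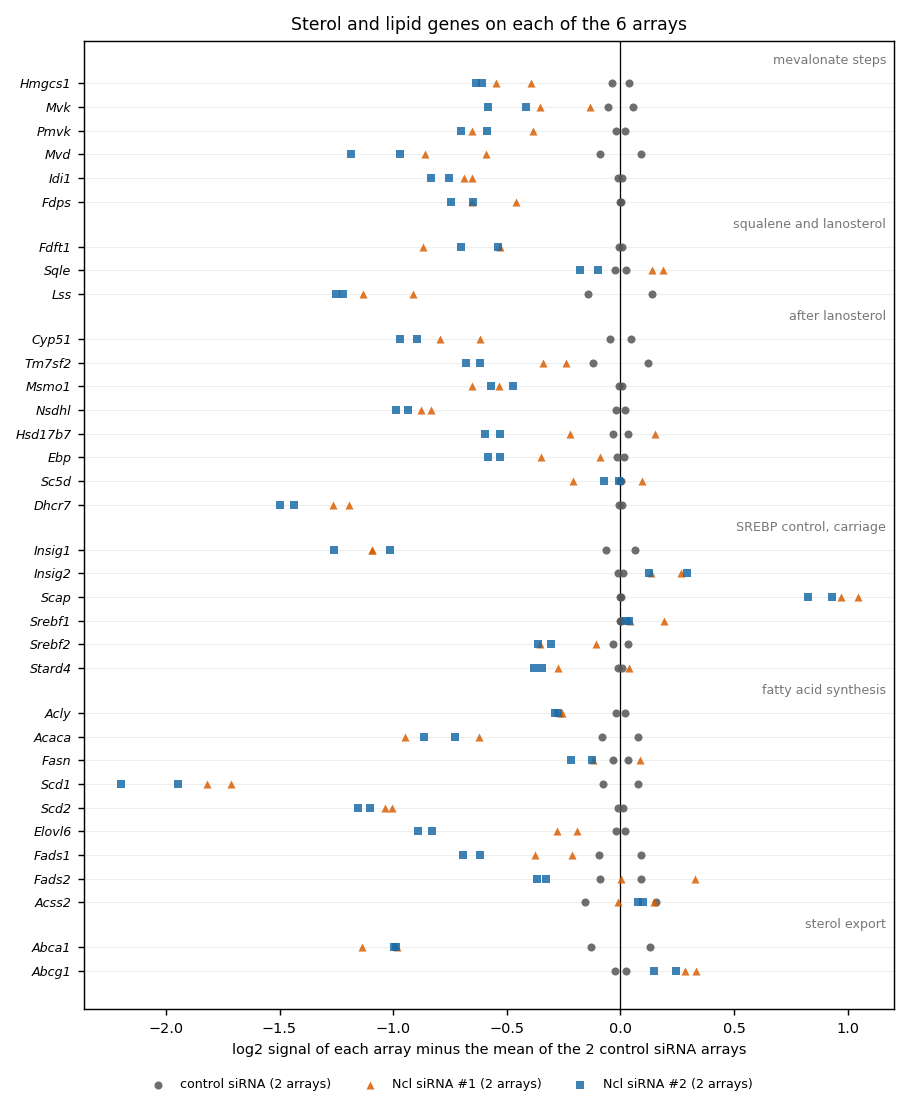
Log2 signal of each array minus the mean of the 2 control siRNA arrays (x axis) for each of the 34 genes, with circles for control siRNA, triangles for Ncl siRNA #1 and squares for Ncl siRNA #2. For Dhcr7, Nsdhl, Insig1, Scd1, Scd2 and Abca1 all 4 Ncl siRNA points lie clear of both control points on the left, and for Scap on the right.

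Promoter sequence was set beside these changes for the 2 sterol synthesis genes (Dhcr7 and Lss) and the export gene (Abca1) with the lowest mean change and, chosen after the search, for the 2 genes whose window held the core of the sterol regulatory element, the site that SREBP binds. RefSeq windows (GRCm38.p6) from 250 bases before the annotated start to 50 after were on hand for 26 of the 34 genes. Scd1, the fatty acid gene with the lowest change, was not among them. Shown are the 250 bases before the start, 5′ to 3′ on the strand of the gene, for Dhcr7 (chr7:143822917-143823166, plus strand, the first of 3 listed starts), Lss (chr10:76531355-76531604, plus strand), Hmgcs1 (chr13:119690101-119690350, plus strand), Insig1 (chr5:28071162-28071411, plus strand) and Abca1 (chr4:53159896-53160145, minus strand). Capitals mark exact matches on either strand to CACNCCAC (sterol regulatory element core), CCAAT (bound by NF-Y), GGGCGG (bound by Sp1) and CACGTG (an E-box).
Dhcr7: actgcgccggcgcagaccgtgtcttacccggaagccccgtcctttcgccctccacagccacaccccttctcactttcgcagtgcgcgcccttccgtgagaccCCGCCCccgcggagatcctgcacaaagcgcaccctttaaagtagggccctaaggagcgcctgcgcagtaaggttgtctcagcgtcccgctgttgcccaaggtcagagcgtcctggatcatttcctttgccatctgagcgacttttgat
Lss: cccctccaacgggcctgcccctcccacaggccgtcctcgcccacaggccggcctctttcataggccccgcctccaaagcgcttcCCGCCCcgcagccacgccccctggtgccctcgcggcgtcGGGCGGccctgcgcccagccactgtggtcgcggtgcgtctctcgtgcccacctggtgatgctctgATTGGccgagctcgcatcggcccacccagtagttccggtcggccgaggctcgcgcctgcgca
Hmgcs1: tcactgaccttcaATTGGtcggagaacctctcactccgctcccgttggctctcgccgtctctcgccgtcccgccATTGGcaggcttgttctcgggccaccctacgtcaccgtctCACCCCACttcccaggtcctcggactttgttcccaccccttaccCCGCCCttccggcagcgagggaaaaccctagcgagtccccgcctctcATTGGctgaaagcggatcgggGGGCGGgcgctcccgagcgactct
Insig1: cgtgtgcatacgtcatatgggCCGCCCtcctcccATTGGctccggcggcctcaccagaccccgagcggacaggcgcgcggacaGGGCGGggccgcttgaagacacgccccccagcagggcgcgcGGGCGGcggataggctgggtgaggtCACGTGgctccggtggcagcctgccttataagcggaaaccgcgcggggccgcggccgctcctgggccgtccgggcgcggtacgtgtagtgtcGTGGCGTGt
Abca1: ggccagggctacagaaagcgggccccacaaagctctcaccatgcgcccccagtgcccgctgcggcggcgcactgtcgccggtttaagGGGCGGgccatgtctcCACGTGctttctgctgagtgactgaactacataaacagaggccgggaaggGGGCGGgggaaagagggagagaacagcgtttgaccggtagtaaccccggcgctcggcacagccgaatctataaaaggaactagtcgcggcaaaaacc

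The core CACNCCAC was in 2 of 26 windows, those of Hmgcs1 and Insig1, against 6.12% of 27025 windows of all genes. CCAAT, the partner site named above for NF-Y, was in 13 of 14 sterol synthesis windows, in 3 of 6 fatty acid synthesis windows and in 37.9% of all windows. GGGCGG was likewise in 13 of 14 sterol synthesis windows and in 35.9% of all. CACGTG was in 5 of 26 windows, Abca1 and Insig1 among them, and in 7.24% of all. Hmgcs1 and Insig1, which hold the core, fell. Dhcr7 and Lss, whose windows do not hold the core, were chosen for their low change. Their fall was thus fixed by the choice, and a link between the core and the changes was not tested. A match describes the letters in this window, and binding was not measured.

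The regulators of the pathway went in different directions, and the changes of the Srebf genes lay between -0.33 and 0.12. Insig1, a retention protein that is itself a target of SREBP, read 9.75 and 9.88 in control, 8.72 and 8.72 with siRNA #1 and 8.80 and 8.55 with siRNA #2. It fell by 1.09 and fell by 1.14 (SE 0.09, adjusted p = 4.01e-09 and 1.69e-09), to 46.9% and 45.5% of control. Scap, the escort protein, read 9.20 and 9.21 in control, 10.25 and 10.18 with siRNA #1 and 10.03 and 10.14 with siRNA #2. Scap rose by 1.01 (SE 0.07, adjusted p = 3.22e-10) and by 0.88 (SE 0.07, adjusted p = 2.28e-09), with all 4 arrays above control. Its other probe set, with group means of 5.23 to 5.36, gave 0.05 and -0.08, and the mean of both probe sets 0.53 and 0.40.

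Srebf2, the regulator mainly of sterol genes, read 8.99 and 8.92 in control, 8.85 and 8.60 with siRNA #1 and 8.59 and 8.66 with siRNA #2. It passed with siRNA #2 (-0.33, SE 0.10, adjusted p = 0.00844) and not with siRNA #1 (-0.23, adjusted p = 0.0692). The siRNA #2 call was lost without replicate 1 of the control (adjusted p = 0.0692) or of siRNA #2 (adjusted p = 0.0972), and the siRNA #1 change passed without replicate 1 of that group (-0.36, adjusted p = 0.00634). On the other Srebf2 probe set the differences were 0.07 and 0.02, so the probe sets disagree in direction. Srebf1, the regulator mainly of fatty acid genes, read 9.53 and 9.53 in control, 9.72 and 9.57 with siRNA #1 and 9.55 and 9.57 with siRNA #2, changes of 0.12 (95% interval -0.05 to 0.28) and 0.03 (95% interval -0.13 to 0.20). Without replicate 2 of siRNA #1 the first was 0.19 (adjusted p = 0.0483).

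Insig2, the second retention protein, read 8.69 and 8.67 in control, 8.95 and 8.81 with siRNA #1 and 8.97 and 8.81 with siRNA #2, so all 4 arrays were above control. Its changes of 0.20 and 0.21 (SE 0.09) did not pass (adjusted p = 0.101 and 0.0856). The siRNA #1 change passed without replicate 2 of siRNA #1 (0.27, adjusted p = 0.0358), and the siRNA #2 change passed without either siRNA #1 array (adjusted p = 0.0416 and 0.0413). Stard4, a carrier that moves cholesterol between membranes, read 9.13 and 9.11 in control, 9.16 and 8.85 with siRNA #1 and 8.77 and 8.74 with siRNA #2. Stard4 fell with siRNA #2 (-0.36, SE 0.10, adjusted p = 0.00447). With siRNA #1 its arrays lay on both sides of control (-0.12, adjusted p = 0.379), and without replicate 1 of that group the change was -0.27. The other Stard4 probe sets gave -0.38 and 0.07 with siRNA #1 and -0.53 and -0.20 with siRNA #2.

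In fatty acid synthesis the desaturases of the Scd family had the lowest changes, while Fasn and Acss2 did not pass. With siRNA #1, 6 of 9 genes fell, against 17.3% of all genes, none rose and 3 did not pass, with a median of -0.26. With siRNA #2, 7 fell, against 21.7% of all genes, none rose and 2 did not pass, with a median of -0.65. The medians became -0.18 and -0.39 when all probe sets of each gene were averaged.

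Scd1, the stearoyl-CoA desaturase that makes monounsaturated fatty acids, read 9.21 and 9.37 in control, 7.58 and 7.47 with siRNA #1 and 7.34 and 7.09 with siRNA #2. It fell by 1.77 (SE 0.12, adjusted p = 6.34e-11) and fell by 2.07 (SE 0.12, adjusted p = 3.65e-12), to 29.4% and 23.8% of control. Scd2, a second stearoyl-CoA desaturase, read 12.16 and 12.14 in control, 11.14 and 11.11 with siRNA #1 and 10.99 and 11.05 with siRNA #2. Scd2 fell by 1.02 and fell by 1.13 (SE 0.05, adjusted p = 2.21e-12 and 3.18e-13). The genes are close relatives whose probe sets may read each other, and all 5 of their probe sets were lower with each siRNA, by 0.65 to 2.07. Adipocytes and lung also express Scd1. Of the adipocyte genes, Fabp4 and Adipoq moved by -1.60 and -1.31 with siRNA #1 and by -1.82 and -1.24 with siRNA #2. Cidec (-0.12 and -0.09) and Lep (-0.08 and 0.03) did not pass with either siRNA. The median of 7 alveolar type 2 genes was -0.92 with siRNA #1 and -1.08 with siRNA #2. The part of these cell types in the Scd changes was not tested.

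Acaca, the carboxylase that makes malonyl-CoA, read 9.92 and 9.76 in control, 9.22 and 8.89 with siRNA #1 and 8.97 and 9.11 with siRNA #2. It changed by -0.79 and -0.80 (SE 0.10, adjusted p = 1.26e-06 and 8.03e-07), both groups of arrays lying below control, and the second was -0.48 with the mean of its probe sets. Elovl6, which elongates saturated fatty acids, read 10.57 and 10.53 in control, 10.36 and 10.27 with siRNA #1 and 9.66 and 9.72 with siRNA #2. Its change was -0.23 with siRNA #1 (SE 0.07, adjusted p = 0.00949; without replicate 1 of the control, -0.22, adjusted p = 0.0783) and -0.86 with siRNA #2 (SE 0.07, adjusted p = 1.15e-09). Fads1, the delta-5 desaturase, read 8.30 and 8.49, then 8.18 and 8.02, then 7.78 and 7.70. It fell with siRNA #2 (-0.65, SE 0.11, adjusted p = 5.20e-05), a call lost with the mean of its 2 probe sets (-0.21, adjusted p = 0.149). With siRNA #1 Fads1 was just inside the threshold (-0.30, SE 0.11, adjusted p = 0.0428) and was lost without replicate 2 of the control (-0.20, adjusted p = 0.326), without replicate 2 of siRNA #1 (-0.21, adjusted p = 0.148), without either siRNA #2 array (adjusted p = 0.0776 and 0.0762) and with the replicate block (adjusted p = 0.0509).

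Acly, which makes cytosolic acetyl-CoA from citrate, changed by -0.26 and -0.28 on its brightest probe set (SE 0.05), whose name ends in _x_at, but by 0.11 and -0.02 on the next, so its direction is uncertain. Fads2, the delta-6 desaturase, spanned 7.09 to 7.79. Its change of -0.35 with siRNA #2 was at the threshold (adjusted p = 0.04996) and was lost without replicate 2 of the control (-0.25, adjusted p = 0.295) or without either siRNA #2 array (adjusted p = 0.226 and 0.162). Its other probe sets gave 0.05 and -0.87. Fasn, the fatty acid synthase, read 10.74 and 10.67 in control, 10.79 and 10.59 with siRNA #1 and 10.49 and 10.58 with siRNA #2. The Fasn changes were -0.02 (95% interval -0.17 to 0.13) and -0.17 (95% interval -0.32 to -0.02, adjusted p = 0.0615), and the second passed without either siRNA #1 array (adjusted p = 0.0173 and 0.0169). Acss2, the acetyl-CoA synthetase, had the dimmest signal of the set, 6.25 to 6.56, and changes of 0.07 and 0.09 with intervals from -0.27 to 0.42. The other Acss2 probe sets gave 0.44 and -0.22 with siRNA #1 and 0.26 and 0.05 with siRNA #2.

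The exporters differed from each other. Abca1, which loads cholesterol onto apolipoproteins, read 10.82 and 10.56 in control, 9.70 and 9.55 with siRNA #1 and 9.70 and 9.69 with siRNA #2. It fell by 1.06 (SE 0.08, adjusted p = 9.94e-10) and fell by 0.99 (SE 0.08, adjusted p = 2.29e-09), to 48.0% and 50.3% of control. A dimmer Abca1 probe set also read lower (-0.19 and -0.29), and the last, below the lower quartile on 5 of 6 arrays, gave 0.13 and 0.10, so that the mean of all 3 changed by -0.38 and -0.39 (adjusted p = 0.0353 and 0.0274). Abcg1, which passes cholesterol to lipoprotein particles, read 8.17 and 8.22 in control, 8.53 and 8.48 with siRNA #1 and 8.44 and 8.34 with siRNA #2. All 4 arrays were above control. Abcg1 rose with siRNA #1 (0.31, SE 0.10, adjusted p = 0.0179), a call lost with the mean of its probe sets (0.14, adjusted p = 0.311), without replicate 1 of the control (0.28, adjusted p = 0.102) or replicate 2 (0.33, adjusted p = 0.0518), and with siRNA #2 the change of 0.20 did not pass (adjusted p = 0.129). Macrophages express both exporters. Of the 8 leukocyte and macrophage genes 3 fell with each siRNA, Lyz2 farthest, by -3.57 and -3.47. In the same comparisons Cd68 differed by 0.50 and 0.21 and Marco by 0.04 and -0.21. The part of macrophages in the change of Abca1 was not tested.

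**Figure D4:**
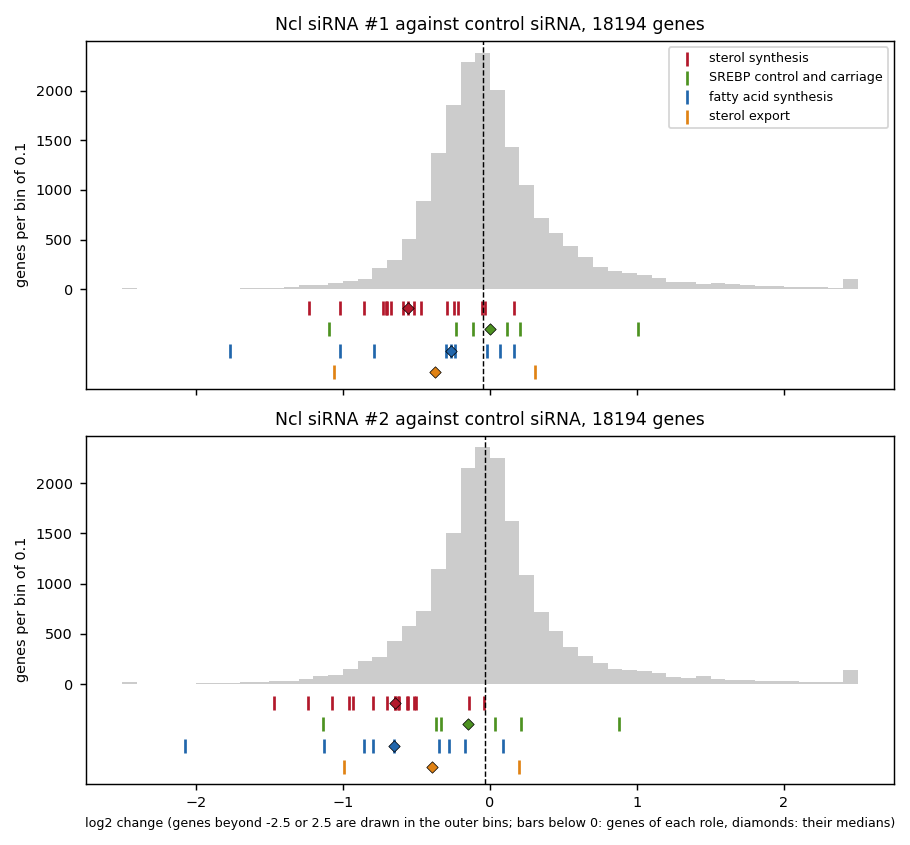
Histograms of the log2 change of all 18194 genes with Ncl siRNA #1 (top) and Ncl siRNA #2 (bottom), with the dashed line at their median of -0.05 and -0.04. Below 0 on the y axis, ticks mark the genes of each role and diamonds the role's median, which for sterol synthesis is -0.56 and -0.64.

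Over all 34 genes, 20 fell, 2 rose (Scap and Abcg1) and 12 did not pass with siRNA #1. Of all genes, 17.3% fell and 20.2% rose in that comparison. With siRNA #2, 26 of the 34 fell, 1 rose (Scap) and 7 did not pass, where of all genes 21.7% fell and 17.7% rose. The siRNA #1 and control arrays did not overlap for 28 of 34 genes, against 64.1% of all genes, with siRNA #1 the lower for 23, against 34.2%. For siRNA #2 they did not overlap for 33 of 34, against 69.6%, with siRNA #2 the lower for 29, against 38.6%. Without the intensity trend in the variance the calls on Ebp, Fads1 and Elovl6 with siRNA #1 and on Srebf2, Stard4 and Fads2 with siRNA #2 were lost. Of the called genes with more than 1 probe set, all probe sets pointed the same way for 14 of 17 with siRNA #1 and for 14 of 21 with siRNA #2.

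The Ncl siRNAs were then compared with each other, where the difference of means does not use the control arrays, while the spread is that of all 6. With the 4 Ncl siRNA arrays alone 5 genes passed as well. With siRNA #2, 5 of 34 genes were lower than with siRNA #1 and none was higher, where 8.48% of all genes passed (6.18% lower and 2.30% higher). The 5 were Elovl6 (-0.62, SE 0.07, adjusted p = 4.66e-06), Hsd17b7 (-0.53, SE 0.14, adjusted p = 0.0189), Fads2 (-0.51, SE 0.14, adjusted p = 0.0234), Ebp (-0.34, SE 0.09, adjusted p = 0.0169) and Sqle (-0.30, SE 0.07, adjusted p = 0.00944). Of the 8 stem cell markers 6 were also lower with siRNA #2 than with siRNA #1 (median of the list -0.22), and their part in these differences was not tested. For each of the 5 genes both siRNA #2 arrays lay below both siRNA #1 arrays. Elovl6 passed whichever array was left out, the call on Sqle was lost without replicate 1 or 2 of siRNA #2 (adjusted p = 0.203 and 0.0620), and those on Hsd17b7, Fads2 and Ebp without replicate 1 of siRNA #1 (adjusted p = 0.185, 0.206 and 0.168) or either siRNA #2 array. Scap (-0.13, 95% interval -0.28 to 0.03), Insig1 (-0.05, 95% interval -0.24 to 0.15), Abca1 (0.07, 95% interval -0.10 to 0.24), Acaca (-0.01, 95% interval -0.22 to 0.19) and Scd2 (-0.11, 95% interval -0.22 to 0.01) did not pass.

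The count in this comparison moved with the arrays of each Ncl siRNA. Replicate 1 of siRNA #1 read above replicate 2 for 31 of the 34 genes, against 58.9% of all genes. Without replicate 2 of siRNA #1, 15 of the 34 genes passed, without replicate 1 of siRNA #1 2 passed, and without replicate 1 or replicate 2 of siRNA #2 1 passed. The mean with siRNA #2 was below that with siRNA #1 for 28 of 34 genes, and for 55.5% of all genes. The arrays of the Ncl siRNAs did not overlap for 23 of 34 genes, against 54.2% of all genes, and siRNA #2 was the lower in all 23, against 33.3%.

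**Figure D5:**
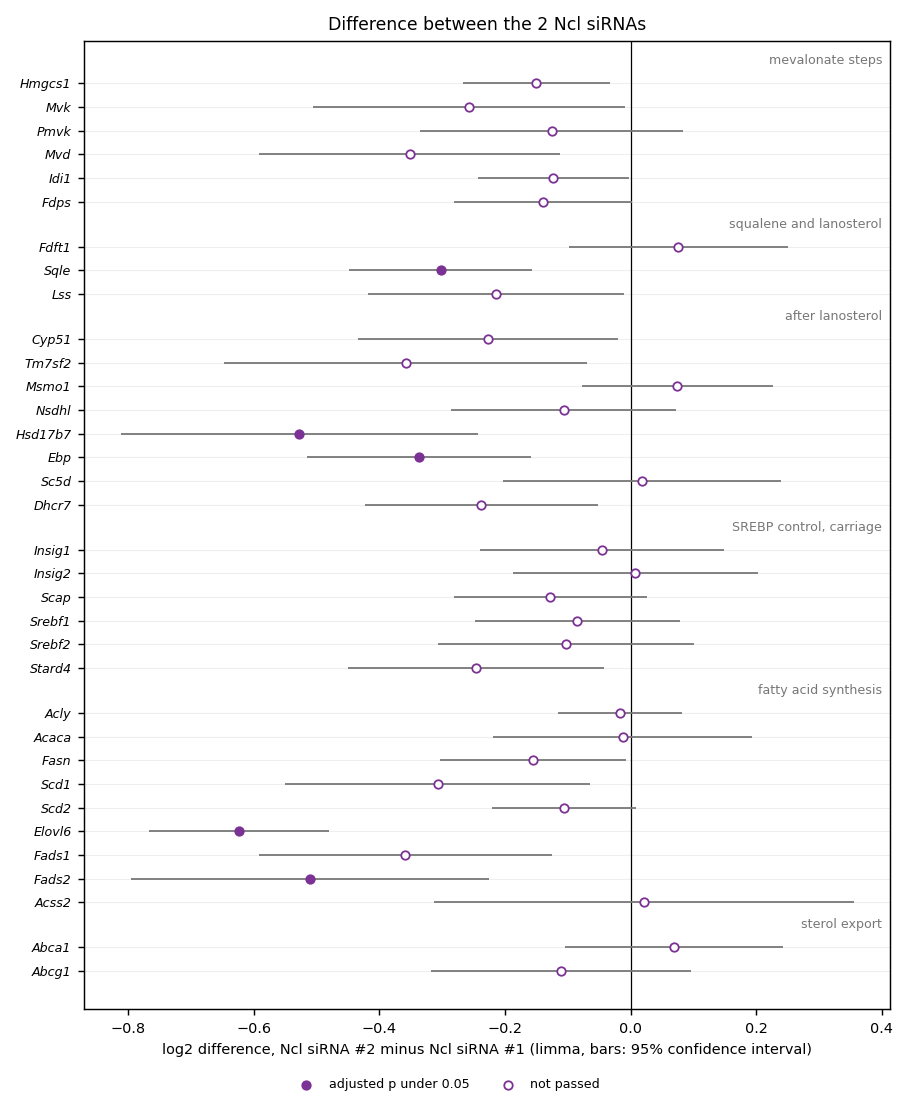
Difference of each of the 34 genes between the Ncl siRNAs (x axis, log2, Ncl siRNA #2 minus Ncl siRNA #1), with unadjusted 95% confidence intervals from limma and filled points for an adjusted p under 0.05. Elovl6 at -0.62, Hsd17b7 at -0.53, Fads2 at -0.51, Ebp at -0.34 and Sqle at -0.30 are filled.

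Further genes of lipid metabolism did not share one direction. Of 44 genes on a list of neighbouring pathway steps 36 were measured. With siRNA #1, 14 rose, 6 fell and 16 did not pass (median 0.09), where of all genes 20.2% rose and 17.3% fell. With siRNA #2, 10 rose, 10 fell and 16 did not pass (median -0.02), where of all genes 17.7% rose and 21.7% fell. Lpin1, the phosphatidate phosphatase lipin 1, rose from 8.02 and 8.10 in control to 9.08 and 9.05 with siRNA #1 and 8.96 and 8.93 with siRNA #2, changes of 1.00 and 0.88 (SE 0.09). Faf2, an adaptor in the degradation of endoplasmic reticulum proteins, rose by 0.51 and 0.44 (SE 0.10). Lpcat3, which puts polyunsaturated chains into phospholipids, rose by 0.51 and 0.41 (SE 0.08), and Acsl4, an acyl-CoA synthetase for polyunsaturated fatty acids, by 0.47 and 0.32 (SE 0.09).

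Among those that fell, Cpt1a, the gate of fatty acid entry into mitochondria, read 8.70 and 8.70 in control, 7.95 and 7.86 with siRNA #1 and 7.95 and 7.84 with siRNA #2, a change of -0.80 with each (SE 0.10). Mid1ip1, an activator of acetyl-CoA carboxylase, changed by -0.58 and -0.83 (SE 0.10). Elovl5, an elongase of polyunsaturated fatty acids, changed by -0.60 and -0.79 (SE 0.08). Gpam, which starts glycerolipid synthesis, changed by -0.37 and -0.56 (SE 0.10). These 8 are, in each direction, the 4 genes of the list with the largest mean change among those that passed the same way with each siRNA.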

How the data were processed

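Total RNA from 6 samples of E14Tg2a cells was extracted with a Qiagen column kit and labelled with biotin by an Affymetrix IVT kit, per the labels' protocols. The authors deposited 1 value per probe set and array on a log2 scale. How background was removed and arrays were normalized is not stated in those labels. The deposited columns have medians of 5.73 to 5.79 and were used as they are.

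GEO's platform annotation gave 34958 of 45101 probe sets a unique gene symbol, gave 932 more than 1 and gave no symbol to 9211, and 204 had a gene identifier outside the RefSeq gene table. For each gene the probe set with the highest mean was kept. Group means were estimated from all 6 arrays in 1 limma fit, version 3.58.1 (R 4.3.3, empirical Bayes with an intensity trend, 3 residual and 17.5 prior degrees of freedom), so the groups share 1 spread. Adjustment over 18194 genes followed Benjamini-Hochberg. The procedure was tested on simulated data. Fold figures are 2 to the power of the log2 change. The number of arrays limits the precision.

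The genes, lists and the rule for naming genes were chosen with earlier results of these data known. The rule gave every array value for the regulators, the exporters and each gene with a called change of at least 0.5, and named up to 4 further genes in each direction. Alternatives were quantile normalization, median centring, the mean of all probe sets, no _x_at or _s_at probe sets, no dim genes, no trend, only the groups compared, a replicate block, array weights and leaving out each array. Same-numbered replicates did not deviate together.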

Additional observations from a re-analysis of the deposited data

Results flagged for a closer look

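For 5 genes the effects of the Ncl siRNAs differed from each other by the limma test of siRNA #2 against siRNA #1. Elovl6 (-0.62) was lower with each siRNA, and farther with siRNA #2. Ebp (-0.34) was also lower with each. Hsd17b7 (-0.53) and Fads2 (-0.51) passed against control with siRNA #2 but not with siRNA #1, and their probe sets disagree. Sqle (-0.30) passed against control with neither siRNA, and its array values with siRNA #1 lay above control and those with siRNA #2 below. Groups of 2 arrays are too small for a test of outlying samples.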

How the results depend on the processing

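Sterol synthesis genes called lower numbered 10 to 14 with siRNA #1 and 13 to 15 with siRNA #2 over all alternatives, against 12 and 15, and genes of the whole set called numbered 17 to 25 and 23 to 29, against 22 and 27. The count of genes that differ between the Ncl siRNAs, 5, was 3 with the mean of all probe sets and 1 without a variance trend, and 1 to 15 when each array was left out in turn. The median of sterol synthesis was -0.39 and -0.56 without probe sets ending in _x_at or _s_at, and -0.65 to -0.46 (siRNA #1) when each array was left out. That of fatty acid synthesis was -0.18 (siRNA #1) and -0.39 (siRNA #2) with the mean of all probe sets, -0.73 (siRNA #2) without genes of below-median signal, and -0.72 to -0.56 (siRNA #2) when each array was left out. Without probe sets ending in _x_at or _s_at, Hsd17b7 with siRNA #2 read 0.0084 and Acly with siRNA #1 read 0.11, both turned in sign, because another probe set then stands for the gene. The cause of the other shifts was not tested. Among 1527 single-gene values under the alternatives, 1429 kept their direction and call or were uncalled throughout, 61 lost a call, 35 gained one and 2 reversed.

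Replicate 1 deviations correlated between groups at -0.02, -0.0046 and 0.0099 over 18194 genes, so no large shared deviation of same-numbered replicates was seen. These values cannot show whether same-numbered arrays came from the same culture or day. With the replicate number as a block, 21 genes passed with siRNA #1, 27 with siRNA #2 and 5 between the siRNAs, and the Fads1 call with siRNA #1 was lost (adjusted p = 0.0509). Leaving out an array leaves 1 array in its group, which is then assumed to vary like the others.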
